A study of Homo sapiens with 4 samples.

Results

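The genes described here encode the proteins that license and fire replication origins, unwind the DNA, and copy both strands at the replication fork. They were taken from a list of 52 genes of origin licensing, the CDC45-MCM-GINS (CMG) helicase, the replicative polymerases, the sliding clamp and its loaders, and proteins that act at the fork, and all 52 were found among the 18449 gene symbols of the count table. Of these symbols, 18066 had at least 1 count and were tested, and each of the 52 genes was among them, with at least 63 counts in every library. *POLA1*, the catalytic subunit of polymerase alpha, was not analysed here.

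RNA of 2 established cell lines derived from patients with an atypical teratoid/rhabdoid tumor of the MYC subgroup (AT/RT-MYC), CHLA-266 and BT-16, was sequenced before treatment and after it. Treated cells had received 1 µM doxorubicin (doxo) and 5 µM etoposide (eto), which both poison topoisomerase II, and 1 µM vincristine (vin), which blocks microtubule assembly, on consecutive days, and most of them died before the survivors grew out again over several weeks. Untreated cells had received none of these drugs. Each cell line gave 1 library per condition, so the 2 cell lines were the replicates of each condition, and all 4 libraries belong to the batch labelled C. The labels name no engineered allele in either line. By the methods of the study, the treated cells are survivors of each line that had grown again, and the day of their harvest is not stated. The drug, the selection of survivors, and the time in culture therefore cannot be told apart.

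In G1 phase, the origin recognition complex (ORC) with CDC6 and CDT1 loads the ring of MCM2 to MCM7 onto DNA as an inactive helicase, a step called licensing, which geminin blocks outside G1. The kinases CDC7-DBF4 and CDK then recruit CDC45 and GINS, the helicase starts to unwind, and primase, the polymerases, the clamp PCNA, and its loader follow at the fork. Most of these genes are transcribed as cells enter S phase, when E2F transcription factors bind their promoters, whereas cells that leave the cycle transcribe them less.

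Promoters were available from RefSeq (GRCh38.p14) for 43 of the 52 genes, as windows from 250 bases before to 50 bases after each annotated gene start. No entry was used for *ATAD5*, *DSCC1*, *GINS4*, *MCM4*, *MCM5*, *POLD3*, *RECQL4*, *RPA2*, and *RPA3*. The letters TTTCCCGC, TTTGGCGC, and TTCCCGCC, which are forms of the E2F site and of which the first and the last can overlap, were searched on both strands. The windows below were chosen to show these letters in genes of licensing (*CDT1* at chr16:88803539-88803838 and *CDC6* at chr17:40287629-40287928, both on the plus strand), of the helicase (*MCM3* at chr6:52284693-52284992 and *GINS2* at chr16:85688905-85689204, both on the minus strand), and of the clamp (*PCNA* at chr20:5126573-5126872 on the minus strand), beside *ORC4* (chr2:148020688-148020987 on the minus strand), the gene with the smallest change, whose windows held none. Capitals mark the E2F letters, and each sequence is written 5′ to 3′ on the strand of the gene.
CDT1: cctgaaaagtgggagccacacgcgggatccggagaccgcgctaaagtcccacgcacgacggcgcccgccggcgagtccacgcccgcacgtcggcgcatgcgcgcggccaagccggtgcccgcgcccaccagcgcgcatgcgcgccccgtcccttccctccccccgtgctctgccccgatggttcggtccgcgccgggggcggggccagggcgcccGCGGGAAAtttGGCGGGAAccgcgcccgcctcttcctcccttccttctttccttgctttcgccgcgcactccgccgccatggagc
CDC6: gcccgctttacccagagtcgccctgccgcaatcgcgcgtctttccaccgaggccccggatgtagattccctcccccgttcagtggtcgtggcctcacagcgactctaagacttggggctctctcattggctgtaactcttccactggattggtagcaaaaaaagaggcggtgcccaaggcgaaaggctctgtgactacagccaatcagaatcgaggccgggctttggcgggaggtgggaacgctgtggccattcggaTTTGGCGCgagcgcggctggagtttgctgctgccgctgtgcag
MCM3: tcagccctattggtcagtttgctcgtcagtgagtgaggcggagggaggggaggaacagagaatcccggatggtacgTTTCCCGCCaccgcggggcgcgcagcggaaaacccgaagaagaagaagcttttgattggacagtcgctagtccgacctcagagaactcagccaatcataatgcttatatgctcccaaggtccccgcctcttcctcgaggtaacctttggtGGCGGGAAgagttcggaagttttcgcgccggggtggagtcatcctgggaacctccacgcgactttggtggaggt
GINS2: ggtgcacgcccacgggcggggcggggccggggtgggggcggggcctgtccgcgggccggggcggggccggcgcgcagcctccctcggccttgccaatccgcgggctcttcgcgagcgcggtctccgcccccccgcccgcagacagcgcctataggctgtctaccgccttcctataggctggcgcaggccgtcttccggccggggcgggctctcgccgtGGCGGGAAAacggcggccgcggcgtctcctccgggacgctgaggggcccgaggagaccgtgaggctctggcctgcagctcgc
PCNA: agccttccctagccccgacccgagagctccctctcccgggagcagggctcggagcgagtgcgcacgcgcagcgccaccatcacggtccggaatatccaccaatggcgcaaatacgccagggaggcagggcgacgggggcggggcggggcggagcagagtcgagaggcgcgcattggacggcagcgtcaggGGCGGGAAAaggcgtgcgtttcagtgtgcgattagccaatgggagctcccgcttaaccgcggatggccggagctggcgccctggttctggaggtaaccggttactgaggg
ORC4: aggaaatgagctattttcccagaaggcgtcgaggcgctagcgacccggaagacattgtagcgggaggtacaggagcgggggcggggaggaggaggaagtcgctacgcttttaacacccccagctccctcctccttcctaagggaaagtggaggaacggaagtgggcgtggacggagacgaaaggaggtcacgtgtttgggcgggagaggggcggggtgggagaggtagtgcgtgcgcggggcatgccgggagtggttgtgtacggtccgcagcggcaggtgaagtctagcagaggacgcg

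Of the 43 genes, 22 (51.2%) held E2F letters in at least 1 window, compared with 7.72% of the 14383 tested genes with a window. Because some genes have more than 1 annotated start, the share was also taken over genes with a single window, where it was 17 of 34 (50%), compared with 6.47% of 10573 genes. The letters CCAAT were held by 25 of the 43 genes (58.1%), compared with 42.2% of all genes, and the letters TTTGAA or TTTAAA, forms of the CHR element of genes that peak later in the cycle, by 3 of 43 (6.98%), compared with 24.5%. A match is a description of letters and not a measured binding site.

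**Figure D1:**
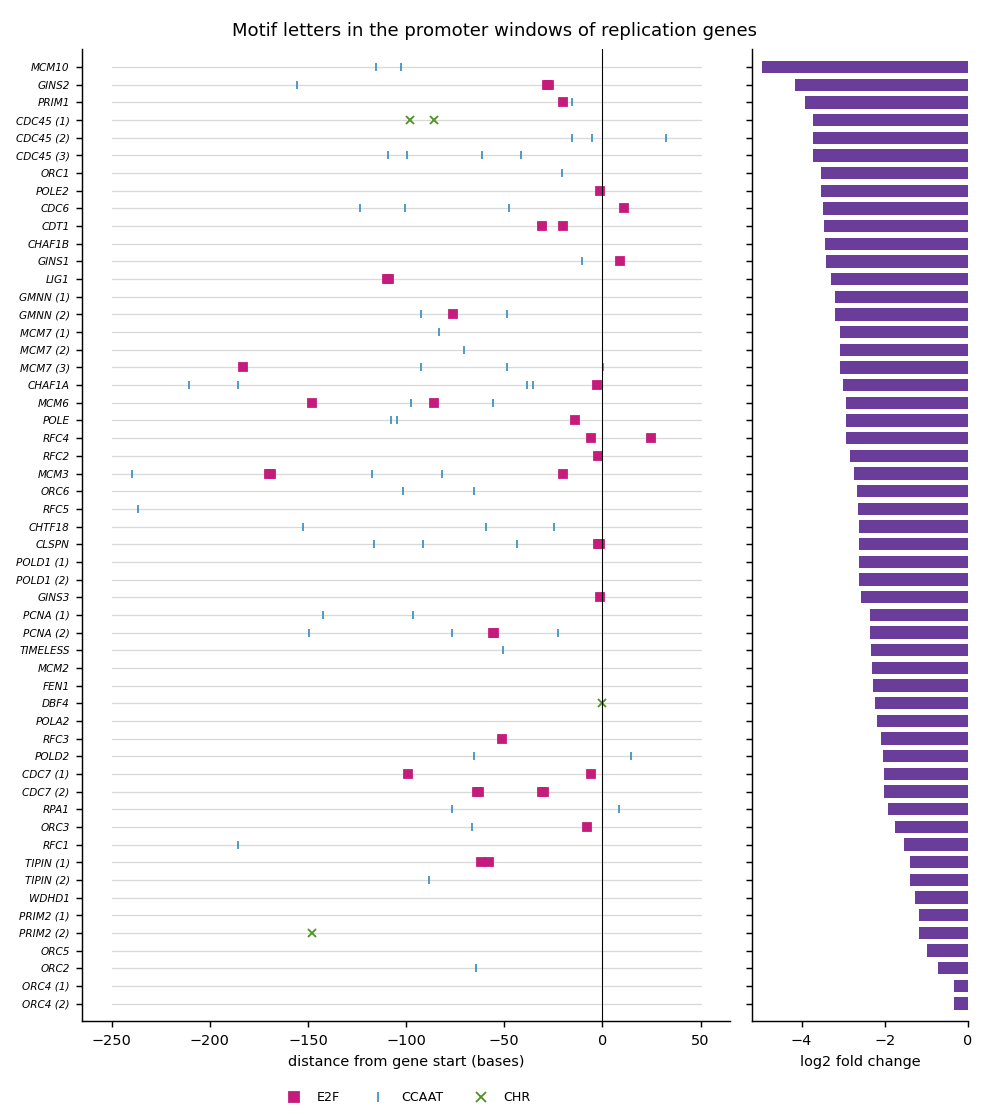
Motif letters in the promoter windows of the 43 genes with a RefSeq window, one line per window, with distance from the gene start in bases on the x-axis of the left panel and the log2 fold change of treated over untreated cells as bars on the right. Genes are ordered by fold change, and the 22 genes with E2F letters reach from *GINS2* near the top to *TIPIN* near the bottom, while the windows of *ORC5*, *ORC2*, and *ORC4*, the last 3 genes, hold none.

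After treatment, 51 of the 52 replication genes were downregulated (edgeR, adjusted *p* under 0.05), none was upregulated, and *ORC4* did not pass the threshold. Across all tested genes, 19.1% were downregulated and 16.1% upregulated. The 52 genes had a median log2 fold change of −2.75, with quartiles of −3.30 and −2.15, while the median of all tested genes was 0.24, with quartiles of −0.50 and 2.28. The sum of the 52 genes fell from 6161 to 1163 CPM (counts per 1000000 after TMM normalization) in BT-16 cells and from 6221 to 1161 CPM in CHLA-266 cells, which left 18.9% and 18.7%. The median gene kept 14.2% of its untreated level in BT-16 cells and 14% in CHLA-266 cells. In bulk samples, fewer cells that replicate their DNA and less RNA per such cell cannot be told apart.

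Both treated libraries lay below both untreated libraries for all 52 genes, compared with 32.3% of all tested genes. The log2 fold change was −1 or lower in 49 of the 52 genes, −2 or lower in 42, and −3 or lower in 19. The lower quartile of all tested genes was −0.50, and their shares past these 3 cuts are not given. Adjusted *p* values of the 51 genes reached from 1.92e-06 for *MCM10* to 0.0148 for *ORC2*. The cell lines are the only replicates, so these values measure the spread between 2 lines per condition, and an exact permutation test of 2 against 2 libraries cannot go below a two-sided *p* of 0.333. With the cell line as a block, 51 genes were again downregulated, and the number of downregulated genes in the whole table was 4288 compared with 3454 without it.

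**Figure D2:**
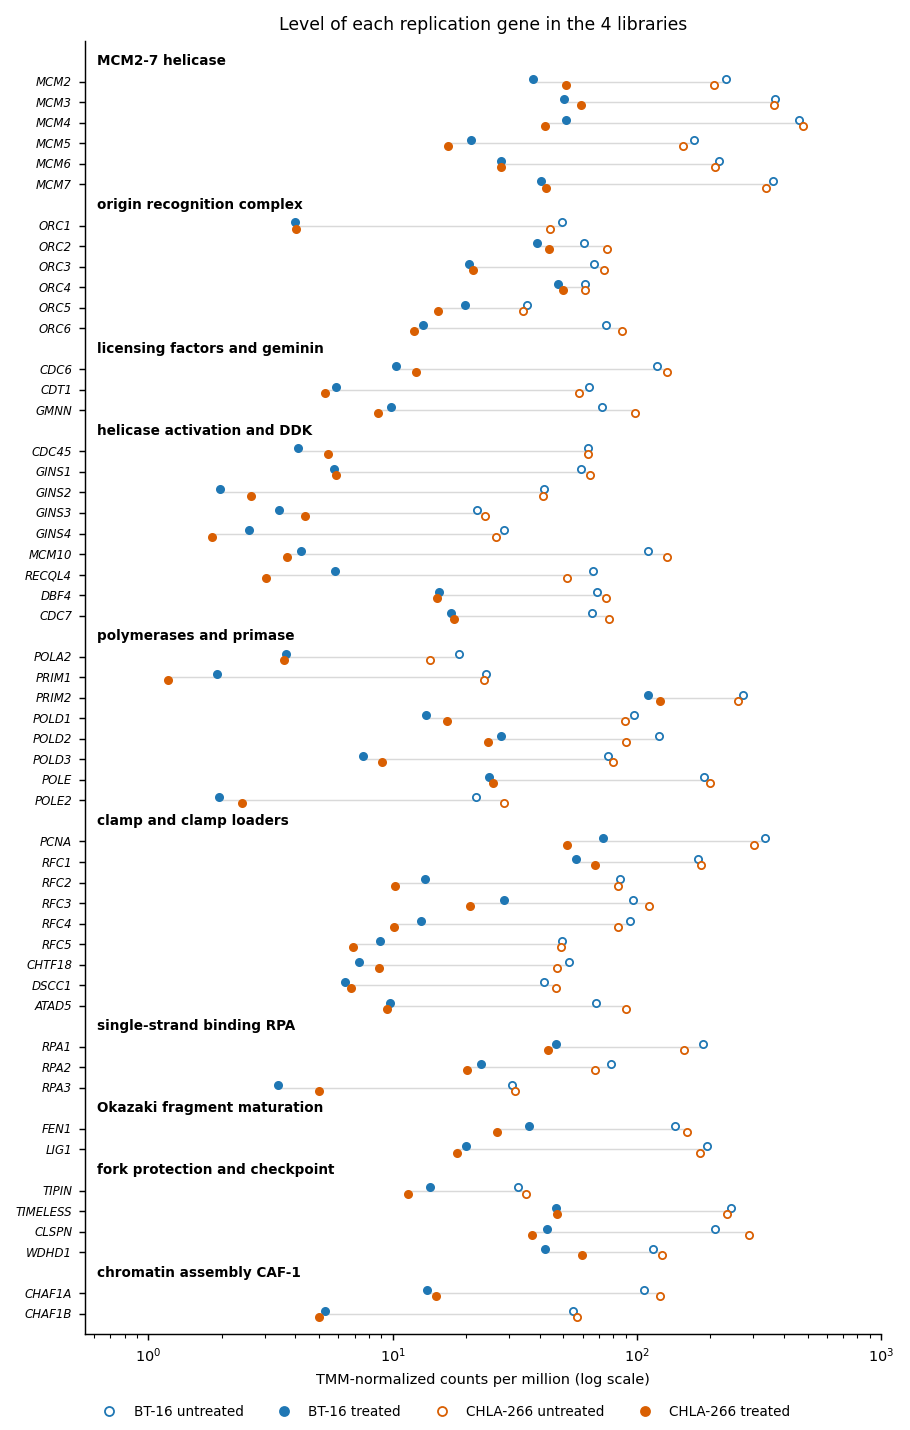
Level of each of the 52 replication genes in the 4 libraries, in TMM-normalized CPM on a log axis, with open circles for untreated and filled circles for treated cells, blue for BT-16 and orange for CHLA-266. In every row the filled circles lie to the left of the open ones, with the widest gap for *MCM10* (111 and 133 to 4.22 and 3.69 CPM) and the narrowest for *ORC4* (61.2 and 61.1 to 47.6 and 49.7 CPM).

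The 4 libraries held 49849257 to 75087193 counts, with the smaller total after treatment in both lines, and 15464 to 17815 genes had at least 1 count. All 14 markers of dividing cells were downregulated, with a median log2 fold change of −4.66 that reached from −1.51 (*CCNE1*) to −6.03 (*MKI67*), and their summed level fell from 4189 to 150 CPM in BT-16 and from 4167 to 140 CPM in CHLA-266. Of the marks of AT/RT-MYC, *MYC* was present at 118 to 207 CPM, the HOXC genes *HOXC10*, *HOXC11*, and *HOXC13* were at or below 2.58 CPM, and *SMARCB1*, whose loss defines most AT/RT, was counted at 15.9 to 21.3 CPM in all 4 libraries. Among 10 macrophage markers, 3 were upregulated (*ITGAM*, *AIF1*, and *CD163*, each with at most 196 counts in any library), compared with 16.1% of all tested genes. In treated BT-16 cells, these 3 genes were at 0.338, 0.376, and 0.167 CPM per kb of exon. None was above the 95th percentile of olfactory receptor genes (0.532), which such cells should not use. In treated CHLA-266 cells (95th percentile 0.443), *ITGAM* and *AIF1* were above it (0.663 and 0.851) and *CD163* was not (0.208). The summed level of the 10 markers was 3.72 and 6.65 CPM in untreated and 10.4 and 11.8 CPM in treated cells. Among 10 fibroblast markers, 2 rose and 2 fell, compared with 16.1% and 19.1% of all tested genes. Their sums were 83.8 and 114 CPM before and 47.6 and 85.6 CPM after treatment. Most of each sum was *FBLN1*, which fell from 99.6 to 61.2 CPM in BT-16 and from 72.8 to 34.5 CPM in CHLA-266. The sums therefore mainly follow this gene, and the median log2 fold change of the 10 markers was 1.38. Whether other cells, outgrowth, or RNA quality had a part in the fall of the replication genes was not tested.

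The MCM2 to MCM7 ring, which is loaded at origins in G1 and becomes the motor of the fork in S phase, fell as a whole, with all 6 subunits downregulated and log2 fold changes from −3.33 to −2.30. *MCM4* fell from 463 to 51.4 CPM in BT-16 and from 479 to 41.9 CPM in CHLA-266, a log2 fold change of −3.33 (SE 0.19, adjusted *p* = 6.82e-06). *MCM7* fell from 361 to 40.4 CPM and from 339 to 42.4 CPM (log2 fold change −3.08, SE 0.17, adjusted *p* = 6.06e-06). *MCM2*, which binds histones as well as DNA, fell from 231 to 37.6 CPM and from 208 to 51.4 CPM, the smallest change of the ring (log2 fold change −2.30, SE 0.20, adjusted *p* = 8.95e-05). *MCM2* was also the subunit in which the lines differed most, with 16.3% left in BT-16 and 24.7% in CHLA-266. *MCM3* (−2.75), *MCM5* (−3.11), and *MCM6* (−2.94) lay between these, and *MCM6* was at 217 and 209 CPM before and 27.8 and 27.9 CPM after treatment.

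Divided by exon length, so that subunits can be compared, the summed level of the ring fell from 346 to 44.7 CPM per kb in BT-16 and from 333 to 49 CPM per kb in CHLA-266. The ends of the order were the same in all 4 libraries. *MCM3* was the highest in all 4 libraries, at 101 and 100 CPM per kb before and 13.8 and 16.2 after treatment, and *MCM5* the lowest, at 23.5 and 21.3 before and 2.88 and 2.31 after. Within the order, *MCM2* moved up in CHLA-266, from 13.3% to 22.3% of the summed level, while *MCM4* went from 14.6% to 8.68%, and in BT-16 they went from 14.2% to 17.8% and from 13.6% to 11.7%. The ratio of *MCM3* to *MCM5* was 4.3 and 4.7 in untreated and 4.78 and 7.03 in treated BT-16 and CHLA-266 cells. With the length of the longest transcript in place of all exons, *MCM7* was the highest in untreated BT-16 cells. The ratio of the highest to the lowest subunit was then 3.16 to 5.05.

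ORC, the complex that marks origins and has further functions outside S phase, was the group with the widest range of changes and with the only gene that did not pass the threshold. *ORC1*, the subunit that is degraded after G1 and made anew in each cycle, fell from 49.2 to 4 CPM in BT-16 and from 44.3 to 4.02 CPM in CHLA-266 (log2 fold change −3.54, SE 0.21, adjusted *p* = 8.88e-06). *ORC6*, a small subunit that also acts in cytokinesis, fell from 74.6 to 13.3 CPM and from 86.9 to 12.2 CPM (log2 fold change −2.67, SE 0.18, adjusted *p* = 1.96e-05). *ORC3* fell from 67 to 20.6 CPM and from 73.6 to 21.3 CPM (log2 fold change −1.75, SE 0.17, adjusted *p* = 0.000164).

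The other subunits form the body of the complex together with *ORC3*, and *ORC5*, *ORC2*, and *ORC4* had the 3 smallest log2 fold changes of the 52 genes. *ORC5* fell from 35.6 to 19.8 CPM and from 34.3 to 15.4 CPM (log2 fold change −0.99, SE 0.20, adjusted *p* = 0.00734). *ORC2* fell from 60.9 to 39 CPM and from 75.4 to 43.9 CPM (log2 fold change −0.72, SE 0.18, adjusted *p* = 0.0148), but this call was lost without the untreated CHLA-266 library (log2 fold change −0.56, adjusted *p* = 0.103), with upper-quartile normalization (−0.37, adjusted *p* = 0.123), and with library totals (−0.49, adjusted *p* = 0.0538). *ORC4* was at 61.2 and 47.6 CPM in BT-16 cells before and after treatment and at 61.1 and 49.7 CPM in CHLA-266 cells (log2 fold change −0.33, SE 0.15, adjusted *p* = 0.126), and with upper-quartile normalization its log2 fold change was 0.02 (adjusted *p* = 0.935). The treated libraries lay below the untreated ones in each line for *ORC4*, with log2 ratios of −0.36 (95% confidence interval −0.43 to −0.29) and −0.30 (−0.37 to −0.23), where the exact intervals cover counting error only. Of all tested genes, 5577 had a lower log2 fold change than *ORC4*, compared with 76 for *MCM10*.

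The order of the ORC subunits per kb of exon was different after treatment. In untreated cells, *ORC6* was the highest subunit at 17.3 and 20.2 CPM per kb, and *ORC4* the lowest at 6.86 and 6.85. In treated cells, *ORC2* was the highest at 6.69 and 7.53 CPM per kb, and *ORC1* the lowest at 1.28 and 1.29. *ORC1* made up 20.7% and 17.4% of the summed ORC level before and 4.79% and 4.86% after treatment, whereas *ORC4* went from 8.99% and 8.43% to 20% and 21%. The sum of the complex fell from 76.3 to 26.7 and from 81.3 to 26.5 CPM per kb. *ORC1* was the lowest treated subunit and *ORC4* the lowest untreated subunit with the length of the longest transcript as well, while the highest treated subunit in BT-16 was then *ORC5*.

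**Figure D3:**
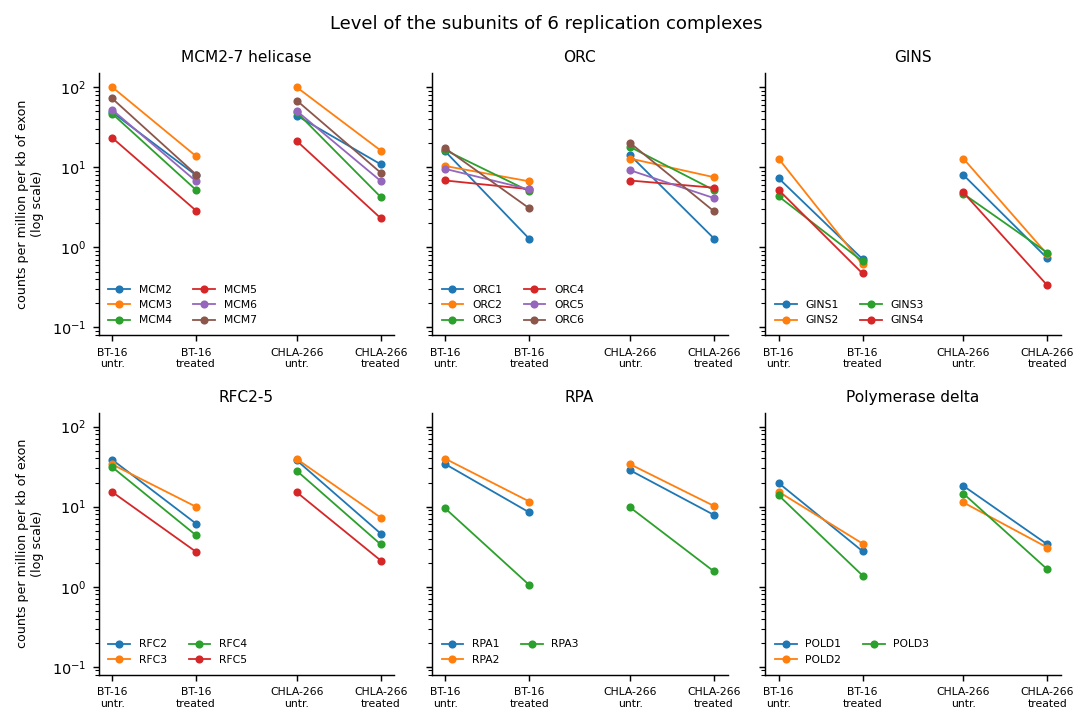
Levels of the subunits of 6 replication complexes in CPM per kb of exon, on a log axis, with lines that join the untreated and the treated library of each cell line. Of the MCM2-7 lines, *MCM3* is on top and *MCM5* at the bottom throughout while *MCM2* crosses others, and of the ORC lines, *ORC1* and *ORC4* cross, with *ORC1* falling from 15.8 to 1.28 and *ORC4* lying at 6.86 before and 5.34 after treatment in BT-16 cells.

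The factors that load the helicase fell together with their inhibitor. *CDC6*, the ATPase that joins ORC to load the ring, fell from 121 to 10.3 CPM in BT-16 and from 133 to 12.5 CPM in CHLA-266 (log2 fold change −3.48, SE 0.19, adjusted *p* = 5.44e-06). *CDT1*, which brings the ring to ORC, fell from 64 to 5.85 CPM and from 57.9 to 5.27 CPM, with the same log2 ratio of −3.45 in both lines (SE 0.20, adjusted *p* = 7.22e-06). *GMNN*, which encodes geminin, fell from 72.2 to 9.84 CPM and from 97.9 to 8.74 CPM (log2 fold change −3.19, SE 0.21, adjusted *p* = 1.75e-05). The ratio of *CDT1* to *GMNN* per kb was 0.795 before and 0.533 after treatment in BT-16, and 0.53 before and 0.541 after in CHLA-266.

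The genes that turn the loaded ring into an active helicase held the 2 largest changes of the 52 genes, and all 9 were downregulated, with a median log2 fold change of −3.64. *MCM10* (chr10:13161558-13211110), which is needed for the helicase to start unwinding, fell from 111 to 4.22 CPM in BT-16 and from 133 to 3.69 CPM in CHLA-266, or 30.8-fold (log2 fold change −4.95, SE 0.20, adjusted *p* = 1.92e-06). *GINS2*, a subunit of the GINS part of the helicase whose promoter is shown above, fell from 41.6 to 1.97 CPM and from 41.4 to 2.64 CPM, or 18-fold (log2 fold change −4.17, SE 0.25, adjusted *p* = 8.88e-06). *CDC45*, which joins GINS and the ring in CMG, fell from 62.9 to 4.12 CPM and from 63.1 to 5.45 CPM (log2 fold change −3.72, SE 0.22, adjusted *p* = 8.34e-06). At most 8.64% of the untreated level of each of these 3 genes was left in either line.

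The other GINS subunits fell less evenly. *GINS4* had a log2 fold change of −3.64 (SE 0.28), *GINS1* of −3.41 (SE 0.19), and *GINS3* of −2.56 (SE 0.26). Their summed level with *GINS2* fell from 29.9 to 2.47 CPM per kb in BT-16 and from 30.5 to 2.75 CPM per kb in CHLA-266. *GINS2* was the highest of the 4 subunits in both untreated libraries, at 12.9 CPM per kb, and at 0.613 and 0.819 CPM per kb it was no longer the highest in the treated ones.

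*RECQL4*, a helicase required for initiation, fell from 65.9 to 5.81 CPM and from 52 to 3.04 CPM (log2 fold change −3.73, SE 0.32, adjusted *p* = 8.77e-05). The kinase that triggers firing showed the smallest changes of this group. *DBF4*, its regulatory subunit, fell from 68.8 to 15.5 CPM and from 75 to 15.2 CPM (log2 fold change −2.23, SE 0.17, adjusted *p* = 4.1e-05). *CDC7*, its catalytic subunit, fell from 65.4 to 17.4 CPM and from 77.2 to 17.8 CPM (log2 fold change −2.02, SE 0.18, adjusted *p* = 9.64e-05). The ratio of *CDC7* to *DBF4* per kb was 1.21 and 1.31 before and 1.43 and 1.5 after treatment.

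**Figure D4:**
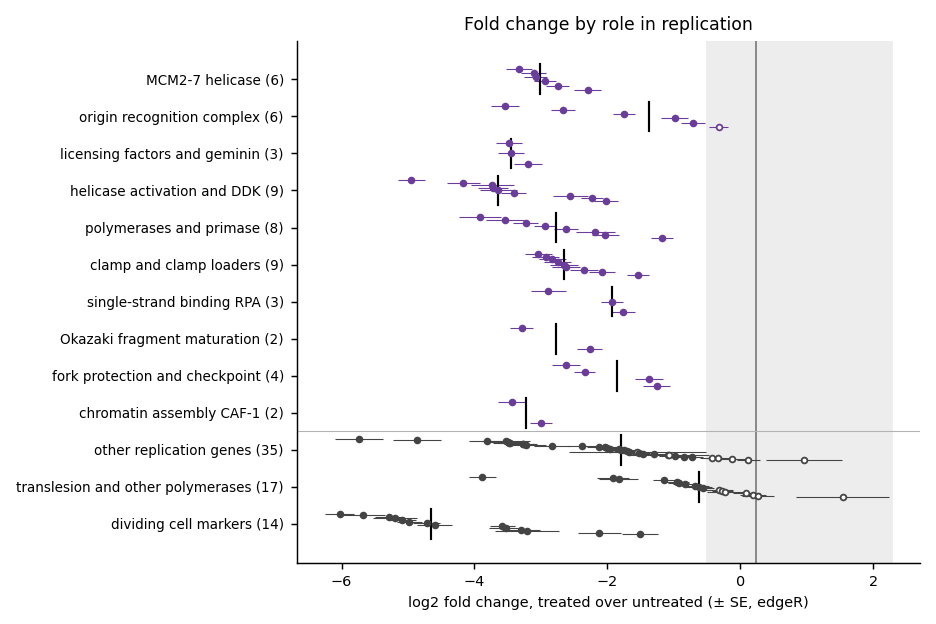
Log2 fold changes of treated over untreated cells with their standard errors from edgeR, one point per gene and grouped by role, with filled points for genes that passed the adjusted *p* threshold, black bars for group medians, and the grey line and band for the median (0.24) and quartiles (−0.50 and 2.28) of all tested genes. The points of the 10 replication groups lie left of the median of all genes, with ORC spread from −3.54 to −0.33, while the translesion and other polymerases scatter around a median of −0.63.

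Primase and the replicative polymerases were downregulated in all 8 genes, but the subunits of primase fell unequally. *PRIM1*, the catalytic subunit that makes the RNA primer, fell from 24.1 to 1.92 CPM in BT-16 and from 23.6 to 1.21 CPM in CHLA-266 (log2 fold change −3.92, SE 0.32, adjusted *p* = 5.77e-05). *PRIM2*, the large subunit, fell from 273 to 111 CPM and from 260 to 124 CPM (log2 fold change −1.18, SE 0.16, adjusted *p* = 0.000999). Per kb, *PRIM2* was 6.65-fold and 6.45-fold above *PRIM1* before treatment and 33.9-fold above it in treated BT-16 cells. *PRIM1* was at 0.58 CPM per kb there, close to the 95th percentile of olfactory receptor genes in that library (0.532), so this ratio is uncertain. No ratio is given for treated CHLA-266 cells, in which *PRIM1*, at 0.366 CPM per kb, was not above the level of olfactory receptor genes, which such cells should not use (95th percentile 0.443 CPM per kb). The annotation holds a pseudogene of *PRIM2* (PRIM2BP), and 15.1% of the exon bases of *PRIM1* are shared with other genes of the same strand, so reads of both genes may be split or added by the counting.

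Of polymerase alpha, which extends the primer, *POLA2* fell from 18.7 to 3.67 CPM and from 14.2 to 3.6 CPM (log2 fold change −2.18, SE 0.29, adjusted *p* = 0.000921). Of polymerase delta, which copies the lagging strand, the catalytic *POLD1* fell from 97.7 to 13.7 CPM and from 89.6 to 16.7 CPM (log2 fold change −2.62, SE 0.18, adjusted *p* = 2.13e-05), the accessory *POLD3* had a larger log2 fold change of −3.23 (SE 0.19), and *POLD2* a smaller one of −2.03 (SE 0.20). The sum of these 3 subunits fell from 49.1 to 7.62 and from 44 to 8.11 CPM per kb. Of polymerase epsilon, which copies the leading strand, the catalytic *POLE* fell from 188 to 24.9 CPM and from 200 to 25.7 CPM (log2 fold change −2.94, SE 0.16, adjusted *p* = 6.87e-06), and *POLE2* from 21.9 to 1.94 CPM and from 28.7 to 2.41 CPM (log2 fold change −3.54, SE 0.29, adjusted *p* = 6.01e-05). *POLE* and *POLE2* thus kept 12.9% to 13.3% and 8.43% to 8.88% of their untreated levels.

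All 9 genes of the clamp and its loaders were downregulated, with a median log2 fold change of −2.65. *PCNA*, the ring that holds polymerases on DNA, fell from 335 to 72.9 CPM in BT-16 and from 301 to 51.9 CPM in CHLA-266 (log2 fold change −2.35, SE 0.21, adjusted *p* = 9.85e-05). Per kb of exon it was the highest of the 52 genes in all 4 libraries, at 239 and 214 CPM per kb before and 52 and 37 CPM per kb after treatment. *PCNA* has 3 annotated pseudogenes, so a part of its reads may have been counted elsewhere.

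The loader consists of a large subunit, *RFC1*, and 4 small ones that the alternative loaders share. *RFC1* changed least of the clamp group, from 178 to 56.5 CPM and from 183 to 67.6 CPM (log2 fold change −1.54, SE 0.17, adjusted *p* = 0.000325). *RFC4* had the largest change of the small subunits, from 93.8 to 13.1 CPM and from 83.9 to 10.1 CPM (log2 fold change −2.93, SE 0.20, adjusted *p* = 1.96e-05), and *RFC2* (−2.83) and *RFC5* (−2.65) were close to it. *RFC3* fell from 96.6 to 28.5 CPM in BT-16 and from 112 to 20.8 CPM in CHLA-266 (log2 fold change −2.08, SE 0.20, adjusted *p* = 0.000169), with 29.5% left in BT-16 and 18.6% in CHLA-266. The genes particular to alternative complexes also fell, namely *CHTF18* (−2.63) and *DSCC1* (−2.75) of the loader that acts in cohesion, and *ATAD5* (−3.04), which unloads PCNA and went from 68.3 to 9.81 CPM and from 90.7 to 9.47 CPM.

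RPA, which coats single-stranded DNA in replication and also in repair, was among the groups with smaller changes. *RPA1* fell from 187 to 46.6 CPM and from 156 to 43.2 CPM (log2 fold change −1.93, SE 0.17, adjusted *p* = 0.000101). *RPA2* fell from 78.6 to 23 CPM and from 67.2 to 20.1 CPM (log2 fold change −1.76, SE 0.18, adjusted *p* = 0.000224). *RPA3*, the smallest subunit, fell from 30.7 to 3.41 CPM and from 31.6 to 5 CPM (log2 fold change −2.89, SE 0.26, adjusted *p* = 0.000127). Between the highest and the lowest subunit per kb, *RPA2* and *RPA3*, the ratio was 4.17 and 3.46 before and 11 and 6.56 after treatment. Both genes have annotated pseudogenes.

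Okazaki fragments are joined after FEN1 cuts the displaced flap and LIG1 seals the nick. *LIG1* fell from 193 to 20 CPM in BT-16 and from 182 to 18.3 CPM in CHLA-266 (log2 fold change −3.29, SE 0.17, adjusted *p* = 4.59e-06). *FEN1* fell from 143 to 36.2 CPM and from 160 to 26.8 CPM (log2 fold change −2.27, SE 0.19, adjusted *p* = 8.73e-05). In BT-16 and CHLA-266 cells, 10.4% and 10% of *LIG1* were left, compared with 25.3% and 16.8% of *FEN1*.

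The proteins that travel with the fork and report its stalling fell by a median log2 fold change of 1.86. *CLSPN*, the adaptor that passes the checkpoint signal to CHK1, fell from 209 to 43 CPM in BT-16 and from 288 to 37.4 CPM in CHLA-266 (log2 fold change −2.63, SE 0.21, adjusted *p* = 4.82e-05). *TIMELESS* fell from 243 to 46.6 CPM and from 233 to 47.1 CPM (log2 fold change −2.34, SE 0.16, adjusted *p* = 2.02e-05), and its partner *TIPIN* from 32.5 to 14.3 CPM and from 35.2 to 11.6 CPM (log2 fold change −1.38, SE 0.21, adjusted *p* = 0.00171). The ratio of *TIMELESS* to *TIPIN* per kb went from 3.5 to 1.52 and from 3.1 to 1.9. *WDHD1*, which links the helicase to polymerase alpha, fell from 117 to 42.1 CPM and from 127 to 59.7 CPM (log2 fold change −1.26, SE 0.20, adjusted *p* = 0.002).

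CAF-1 places new histones behind the fork, and both of its listed subunits fell. *CHAF1A* fell from 107 to 13.9 CPM and from 124 to 15 CPM or 7.99-fold (SE of the log2 fold change 0.17, adjusted *p* = 8.21e-06). *CHAF1B* fell from 54.9 to 5.29 CPM and from 57 to 5.02 CPM (log2 fold change −3.44, SE 0.20, adjusted *p* = 7.2e-06). The ratio of *CHAF1A* to *CHAF1B* per kb was 2.3 and 2.58 before and 3.11 and 3.53 after treatment.

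The lowest treated levels were set beside 342 olfactory receptor genes, which such cells should not use. Their 95th percentile was 0.0604 and 0.0651 CPM per kb in untreated and 0.532 and 0.443 CPM per kb in treated BT-16 and CHLA-266 cells, so reads in such genes were more frequent after treatment. In untreated cells, all 52 replication genes were above this value. In treated cells, *GINS4* and *POLA2* were not above it in BT-16, and *GINS4*, *POLA2*, and *PRIM1* were not above it in CHLA-266, so the treated levels of these 3 genes were not told apart from that background. With the length of the longest transcript, all 52 genes were above it in each library.

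All 52 genes were lower after treatment in each cell line, compared with 6514 of the 18066 tested genes. The medians of the 52 genes were similar in both lines. Treated over untreated counts had a median log2 ratio of −2.81 in BT-16 cells, next to −2.83 in CHLA-266 cells, and over the 52 genes, which share the same libraries, the ratios of both lines had a Pearson correlation of 0.934 and a Spearman correlation of 0.923. In 44 genes, the ratios differed by at most 0.5. No such correlation or count is given for all tested genes, so neither sets the 52 genes apart. The largest difference was 0.67, in *RFC3*, with a ratio of −1.76 (95% interval −1.84 to −1.68) in BT-16 and −2.43 (−2.52 to −2.34) in CHLA-266. The fall was deeper in CHLA-266 for 30 genes and in BT-16 for 22. With 1 library per line and condition, the difference between the lines in their response was not tested.

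**Figure D5:**
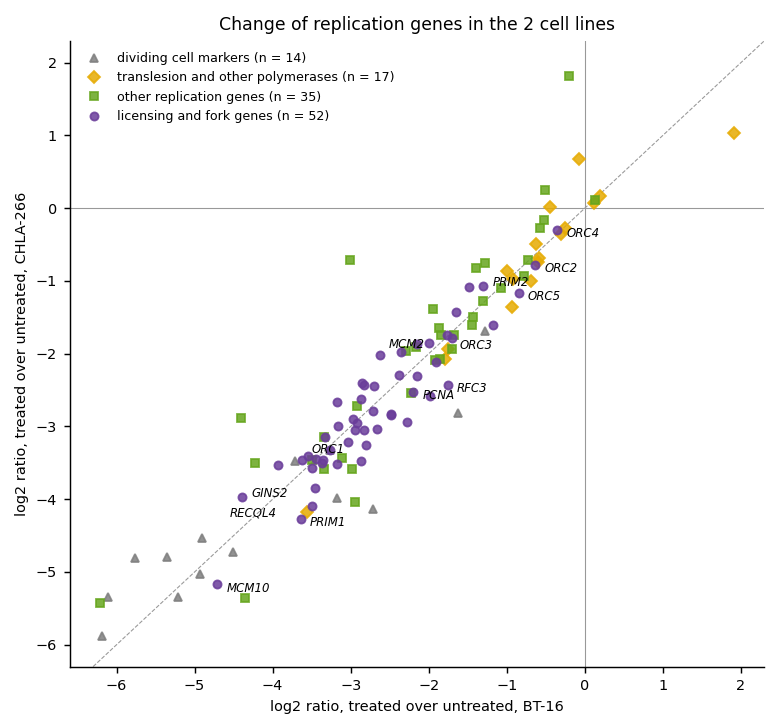
Log2 ratio of treated to untreated counts in BT-16 (x-axis) and in CHLA-266 (y-axis), one point per gene, with the dashed line for equal change. The 52 licensing and fork genes (purple circles) lie in the lower left quadrant near the dashed line, from *MCM10* (−4.71 and −5.17) to *ORC4* (−0.36 and −0.30), and 4 genes of the other plotted lists lie above 0 in CHLA-266 and below 0 in BT-16.

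The levels of the replication genes were also compared between the lines. Over both conditions, with the condition in the model, 0 of the 52 genes differed between BT-16 and CHLA-266 (edgeR). Of all tested genes, 2.3% did, and with so small a share a count of 0 among 52 does not set the replication genes apart. At an unadjusted *p* under 0.05 there were 2 genes, and with DESeq2 there were 0 genes after adjustment and 1 at an unadjusted *p* under 0.05. *RECQL4* had the largest difference, with a log2 value of 0.61 in favor of BT-16 (SE 0.19, adjusted *p* = 0.107), and the highest BT-16 over CHLA-266 ratio among treated libraries (log2 0.93). The median absolute log2 difference was 0.15 for the replication genes and 0.19 for genes in which no library had under 10 counts. Before treatment, the differences reached from −0.46 (*CLSPN*, higher in CHLA-266) to 0.45 (*POLD2*, higher in BT-16).

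The 22 genes with E2F letters had a median log2 fold change of −2.94 and the 21 genes without them of −2.27. Taken by form, the medians with and without were −3.19 and −2.59 for TTTGGCGC, and −2.93 and −2.45 for TTCCCGCC. For TTTCCCGC they were −2.63 and −2.64. The letters CCAAT also split the genes, with medians of −2.75 with and −2.28 without them. Across all tested genes with a promoter window, the medians with and without E2F letters were −0.40 and 0.22, and 36.7% of the 1111 genes with them were downregulated. These medians were −3.35 and −1.55 in the other replication genes described below, and −0.78 and −0.62 in the translesion and other polymerases. In the dividing cell markers the order was opposite, with −2.66 for 2 genes with E2F letters and −5.09 for 8 without. *MCM10*, *CDC45*, and *ORC1*, with log2 fold changes of −3.54 and lower, held no E2F letters in their windows, while *TIPIN* and *ORC3*, with −1.38 and −1.75, did. No match means only that these letters are not in the window.

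Annotated pseudogenes or shared exon bases could move reads into or out of 16 of the 52 genes. A pseudogene is annotated for 11 genes, and in 7 genes more than 10% of the exon bases are shared with another gene. Of the 36 genes with neither, 35 were downregulated, and their median log2 fold change was −2.94. *MCM10*, *GINS2*, *CDC45*, *CDC6*, *CDT1*, and *ORC4* are among these 36 genes.

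Another 35 replication genes outside the 52 act in origin firing, as further subunits, in primer processing, in the turnover of licensing factors, and in chromatin replication. Of these, 28 (80%) were downregulated, compared with 19.1% of all tested genes, and none was upregulated. Their median log2 fold change was −1.79. All 5 genes of origin firing fell (median −2.38). *EXO1*, an exonuclease of mismatch repair and flap processing, had the lowest value, from 66.1 to 0.882 CPM in BT-16 and from 81.2 to 1.89 CPM in CHLA-266 (log2 fold change −5.74, SE 0.36, adjusted *p* = 1.17e-05). Its treated level in BT-16, 0.213 CPM per kb, was not above the 95th percentile of the olfactory receptor genes (0.532). In treated CHLA-266 cells it was at 0.456 CPM per kb, close to that percentile (0.443). *SUPT16H*, a subunit of the histone chaperone FACT and the most abundant gene of the list before treatment, fell from 620 to 250 CPM and from 707 to 290 CPM (log2 fold change −1.30, SE 0.17, adjusted *p* = 0.00096). *POLD4*, the smallest subunit of polymerase delta, had the highest value and did not pass the threshold (log2 fold change 0.96, SE 0.57, adjusted *p* = 0.215), at 2.29 and 1.99 CPM in untreated and treated BT-16 and at 1.54 and 5.48 CPM in CHLA-266.

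Polymerases that act outside bulk replication, taken as 1 list with helper genes that are not polymerases themselves, had a smaller median change. Of 17 genes of translesion synthesis, base excision, end joining, and mitochondrial replication, 10 (58.8%) were downregulated and none upregulated, with a median log2 fold change of −0.63. Across all tested genes, 19.1% were downregulated. With upper-quartile normalization, 6 of the 17 genes were downregulated, compared with 10.5% of all tested genes. *POLQ*, the polymerase of theta-mediated end joining, stood apart with a fall from 96.8 to 8.2 CPM in BT-16 and from 127 to 6.99 CPM in CHLA-266 (log2 fold change −3.88, SE 0.21, adjusted *p* = 5.8e-06), which was lower than that of all but 3 of the 52 replication genes. *REV3L*, the catalytic subunit of translesion polymerase zeta and the most abundant gene of this list, was at 128 and 139 CPM in untreated and treated BT-16 and at 168 and 176 CPM in CHLA-266 (log2 fold change 0.09, SE 0.20, adjusted *p* = 0.728). *POLN* had the highest log2 fold change, 1.54 (SE 0.70, adjusted *p* = 0.114), at 0.536 to 2.04 CPM. Its treated levels, 0.264 CPM per kb in BT-16 and 0.147 in CHLA-266, were not above the 95th percentile of olfactory receptor genes (0.532 and 0.443). Other genes of the same strand share 49.3% of its exon bases. With at least 10 counts in every library, 1 gene of this list was upregulated, compared with 2253 of the 12620 genes tested.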

How the data were processed

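RNA of untreated and treated BT-16 and CHLA-266 cells was sequenced with a stranded, paired-end SMART-Seq protocol. The authors converted the reads with bcl2fastq 2.20, trimmed them with Skewer, aligned them to hg38 with STAR, counted them per gene, and removed genes on the sex chromosomes. The deposited expected counts are estimated, unnormalized numbers of reads for each gene symbol, and the 5 values that were not whole, in 2 genes, were rounded. The deposited log2 values are variance-stabilized counts from DESeq2 for 17553 genes, and they were used only in an alternative. No column was left unmapped (0).

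Treated and untreated libraries were compared over 18066 genes with edgeR 4.0.16 (TMM factors, quasi-likelihood fit, *p* values adjusted over all genes by Benjamini-Hochberg, threshold 0.05) in R 4.3.3, with no term for the line. The methods of the study name DESeq2 for these libraries and no covariate. The lines were compared with the condition as a term. The libraries of 1 cell line are paired by the line itself, and across 12620 genes its libraries deviated together from their condition means (correlation 0.263). Ratios within a line used TMM-normalized counts plus 0.5, and their 95% intervals (exact, Clopper-Pearson) cover only counting error, and too little of it if both reads of a pair were counted (20.5% to 34.2% of the genes with 1 to 20 counts had an odd count). Levels per kb used the exon lengths of GENCODE 44 on hg38, and promoters came from RefSeq (GRCh38.p14). Alternatives were DESeq2 1.42.0, a block for the cell line, other normalizations, count filters, limma 3.58.1 on the log2 values, halved counts, 2 counts added, and each library left out, and the removal of 16 genes with pseudogenes or shared exons was added after seeing the data. The scripts were tested on simulated counts in which 200 genes changed by a log2 fold of 2. With the same mean in both lines, the fit without a block recovered 185 of them. With the mean of each line, it recovered 0, while the fit with the cell line as a block recovered 186.

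The 52 genes and the comparison lists were chosen with earlier results of these data known. All 52 genes could be named, as could the lowest, the highest, and the most abundant gene of each other list and the members of counts of 5 or fewer. The other CDK inhibitors in the list of quiescence and E2F repression were named as well, with the results known.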

Additional observations from a re-analysis of the deposited data

Results flagged for a closer look

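None of the 52 licensing and fork genes moved in opposite directions in the 2 cell lines, and no share of all tested genes that did so is given. Among the other replication genes and the translesion and other polymerases, 4 genes had a treated over untreated log2 ratio below 0 in BT-16 and above 0 in CHLA-266. With 1 library per line and condition, these differences were not tested, and the 95% intervals given cover counting error only. *LRWD1*, an ORC-associated protein, was the gene with intervals on opposite sides of 0, at −0.51 (−0.64 to −0.39) in BT-16 and 0.25 (0.12 to 0.38) in CHLA-266, a gap of −0.76 between BT-16 and CHLA-266. In the other 3 genes, the interval of 1 line included 0. *POLD4* had the widest gap, −2.03, with ratios of −0.20 (−0.56 to 0.15) and 1.82 (1.49 to 2.18). For *POLL*, a polymerase of base excision and end joining, the gap was −0.76, with ratios of −0.08 (−0.17 to 0.02) and 0.68 (0.57 to 0.79). For *POLM*, a polymerase of end joining, it was −0.47, with ratios of −0.45 (−0.61 to −0.29) and 0.02 (−0.16 to 0.19). None of the 4 genes passed the threshold between treated and untreated libraries in edgeR.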

How the results depend on the processing

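In the settings tried, 50 or 51 of the 52 genes were downregulated, and with the cell line as a replicate block the count was 51 and the median log2 fold change −2.75. The median was −2.68 with DESeq2, with and without the block, and with DESeq2 size factors in edgeR, −2.40 with upper-quartile normalization, −2.52 with library totals, −2.57 and −2.71 with at least 10 counts in every library and with filterByExpr, −2.28 with limma, −2.73 with halved counts, −2.94 without 16 genes with pseudogenes or shared exons, and −2.82 to −2.73 with each library left out. *ORC2* lost its call in 3 of 14 settings, and *ORC4* turned to 0.02 with upper-quartile normalization, which moved the median of all genes from 0.24 to 0.59 and the share of downregulated genes from 19.1% to 10.5%. The median of the 52 genes stayed 2.98 to 2.99 below that of all genes under the 4 normalizations and the block. A normalization rescales whole libraries, so this gap was nearly fixed in advance under the 4 of them. The median of the 52 genes minus that of all genes was −2.57 with at least 10 counts in every library. It was −2.83 with filterByExpr and −2.44 with limma. Of the translesion and other polymerases, 6 fell with upper-quartile normalization and 7 to 8 with each library left out. Between the lines, 1 gene was called with DESeq2 size factors and 1 with library totals. Without any 1 library, the comparison of the lines had no residual degrees of freedom and gave no value. Within the lines, the medians were −2.52 and −2.67 with library totals and −2.72 and −2.80 with DESeq2 size factors. The cause of these shifts was not tested. The block changed the call of none of the 52 genes.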

Other observations

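In a list of 18 genes of quiescence and E2F repression, 2 were upregulated, 11 (61.1%) were downregulated, and 5 did not pass the threshold in edgeR. Across all tested genes, 16.1% were upregulated and 19.1% downregulated. *CDKN1A*, which encodes the CDK inhibitor p21, rose from 119 to 442 CPM in BT-16 and from 105 to 380 CPM in CHLA-266 (log2 fold change 1.88, SE 0.17, adjusted *p* = 0.000136). *CDKN2B*, which encodes the CDK inhibitor p15, rose from 8.61 to 31.3 CPM and from 10.6 to 48.1 CPM (log2 fold change 2.05, SE 0.26, adjusted *p* = 0.000707). Of the other CDK inhibitors in this list, *CDKN2A*, *CDKN2C*, and *CDKN1B* were downregulated, while *CDKN1C* and *CDKN2D* did not pass the threshold. *LIN9*, a subunit of the DREAM and MuvB complexes, had the lowest value, from 38.8 to 7.58 CPM and from 34.4 to 4.93 CPM (log2 fold change −2.55, SE 0.26, adjusted *p* = 0.000243). The median of this list was −0.64.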
